A study of Mus musculus with 9 samples.

Results

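The collagen chain genes encode the alpha chains from which collagens, the main structural proteins of the extracellular matrix, are built. They were taken as every gene whose symbol is Col, a number, a and a number and that has a probe set annotated to that gene alone, which gave 44 genes among 19938 genes with such a probe set. The 44 genes had 46 probe sets. For Col6a5 and Col6a6, with 2 each, the one with the highest mean over all arrays was used. The genes were followed in 3 groups of 3 mouse samples taken at postnatal day 13: medulloblastoma of mice with the genotype label Ptch1KO, cerebellum of mice labelled SufuKO, and cerebellum of wildtype mice. Medulloblastoma is a tumour of the cerebellum, Ptch1 encodes the receptor that holds the Hedgehog pathway off, and Sufu encodes a protein that restrains the Gli transcription factors at the end of that pathway. The labels name no Cre driver, promoter, strain or pooling of animals, so what a group models is known only by these genotype and tissue labels. Whether each sample came from its own animal is not stated either, so the p-values reflect only how far these arrays scatter, part of which may be technical.

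Collagen chains assemble into triple helices of 3 chains of the same or of different genes, are hydroxylated and glycosylated in the endoplasmic reticulum, and are secreted. Fibrillar collagens then form the fibrils of connective tissue, and collagen IV forms the sheet of basement membranes under endothelium and around the brain surface. Other collagens sit on fibrils, link matrices to each other or span the plasma membrane. In brain, fibrillar collagen lies mostly in the meninges and around larger vessels, and most of the tissue between the cells holds little of it.

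Total RNA was read on 1 Affymetrix Mouse Gene 1.0 ST array per sample, and the deposited values are on a log2 scale, with array medians from 6.72 to 6.79. No detection call comes with them, and a barely expressed chain cannot be told from background. The labels were read against their genes first. Sufu had log2 values of 8.07, 8.14 and 7.99 in SufuKO cerebellum, against 9.03, 8.82 and 9.02 in wildtype cerebellum. Ptch1 averaged 11.28 ± 0.14 in the tumours and 10.26 ± 0.01 in wildtype (SD, n = 3 each), and because the deleted part of Ptch1 is unstated, its level checks nothing. Of 6 granule neuron progenitor markers, all 6 rose in both mutants against wildtype, and the 7 Purkinje cell markers fell in both, with a median log2 difference of -1.87 in the tumours and -0.68 in SufuKO. By the same test, given below, 22.1% of all genes rose and 24.7% fell in the tumours, and 13% and 12.4% in SufuKO. Xist, the RNA of the inactive X chromosome, was high on 1 tumour array (replicate 2), 1 SufuKO array (replicate 3) and all 3 wildtype arrays, so the groups also differed in sex. On the first principal component of all tested genes tumour replicate 3 lay nearest to wildtype, at 26.1 beside 41.3 and 39.9 for the other tumours.

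All 44 chains passed the filter on low values, which kept the 16323 genes that on 3 or more arrays exceeded the 25th percentile. Few of them were called between the groups in the fit without sex. A gene is said to have risen, fallen or been called where limma's moderated test across all 16323 genes gave a Benjamini-Hochberg adjusted p under 0.05. In the Ptch1KO tumours against wildtype 4 chains rose, 1 fell and 39 were not called. That is 11.4% of the chains, against 46.8% of all genes tested (22.1% higher and 24.7% lower). In SufuKO against wildtype 0 rose, 3 fell and 41 were not called, or 6.82% of the chains against 25.4% of all genes (13% higher and 12.4% lower); by unadjusted p 7 of the chains lay under 0.05 in either direction, beside 35.8% of all genes. Between the mutants, tumour against SufuKO, 3 chains were higher and 0 lower, again 6.82% of the chains, against 29.7% of all genes (12.2% higher and 17.5% lower). In this last comparison 7 chains had an unadjusted p under 0.05, of which Col20a1 was the only one lower, beside 37.9% of all genes. In the tumours against wildtype 11 chains had one, beside 51.9% of all genes. The chains read at a low to middling level, with means over the 9 arrays between 5.77 and 8.51. Among the 9991 tested genes with means in that range, 42.7% were called in the tumours against wildtype, 22.2% in SufuKO against wildtype and 26.2% between the mutants.

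The sizes were small as well. The median absolute log2 difference of the chains was 0.12 in the tumours against wildtype, beside 0.19 for all genes tested. It was 0.09 in SufuKO against wildtype, beside 0.12 for all genes, and 0.08 between the mutants, again beside 0.12. A single chain, Col11a1 in the tumours, differed by 0.5 or more on the log2 scale, a size that 22.4% of all genes reached in that comparison. The 95% confidence interval of the log2 difference lay wholly between -0.5 and 0.5 for 41 chains in the tumours, for 42 in SufuKO and for 42 between the mutants, and between -1 and 1 for all 44 in each comparison. The precision was like that of other genes, with a median standard error of 0.09 for the chains and 0.08 for all genes tested. The sign of the small differences was uneven. In SufuKO 37 of 44 chains lay below wildtype and 7 above, with a median of -0.08 beside -0.01 for all genes. In the tumours 27 lay below and 17 above, with a median of -0.07 beside -0.01. Both comparisons share the same 3 wildtype arrays. The balance moved when single arrays were left out and when sex was a covariate. SufuKO replicate 3 was the lowest of the 9 arrays for 27 of the 44 chains, and without it 23 chains lay below wildtype and 21 above in SufuKO, with a median of -0.01. Without SufuKO replicate 1 it was 41 below and 3 above, with a median of -0.17. Without wildtype replicate 2 the chains of the tumours split into 22 below and 22 above, with a median of -0.01, and without wildtype replicate 3 into 33 and 11, with a median of -0.10. With sex as a covariate 42 lay below and 2 above in SufuKO (median -0.17), and 36 below and 8 above in the tumours (median -0.12). Between the mutants 30 chains were higher and 14 lower in the tumours (median 0.04), which turned to 18 higher and 26 lower without SufuKO replicate 3 (median -0.04) and to 37 and 7 without SufuKO replicate 1 (median 0.11).

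Sex was partly confounded with genotype, since all wildtype arrays and 1 array of each mutant group had high Xist. The calls of several chains changed when it was a covariate. With sex as a covariate, 2 chains were higher and 12 lower in the tumours, against 4 and 1 without it. In that fit 31.8% of the chains were called, beside 45.9% of all genes, and 27.3% were lower, beside 24.2% of all genes, so the low share of chains that fell in the tumours does not hold there. In SufuKO 0 were higher and 6 lower, against 0 and 3, or 13.6% of the chains beside 24% of all genes, of which 11.2% were lower. Between the mutants 4 were higher and 0 lower, or 9.09% of the chains beside 31% of all genes. The 12 were Col11a2, Col2a1, Col1a2, Col6a1, Col6a4, Col6a5, Col6a6, Col9a1, Col9a2, Col13a1, Col17a1 and Col20a1, with log2 differences from -0.41 to -0.26. The 6 were Col11a2, Col1a2, Col6a1, Col6a4, Col9a2 and Col13a1, from -0.45 to -0.25. Col12a1 and Col28a1 lost their calls in the tumours with sex as a covariate, and Col1a1 lost its call in SufuKO. In that fit the effect of sex is set by 1 array against 2 within each mutant group, and in SufuKO that 1 array is replicate 3. Sex therefore cannot be told apart there from other traits of a single array.

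**Figure D1:**
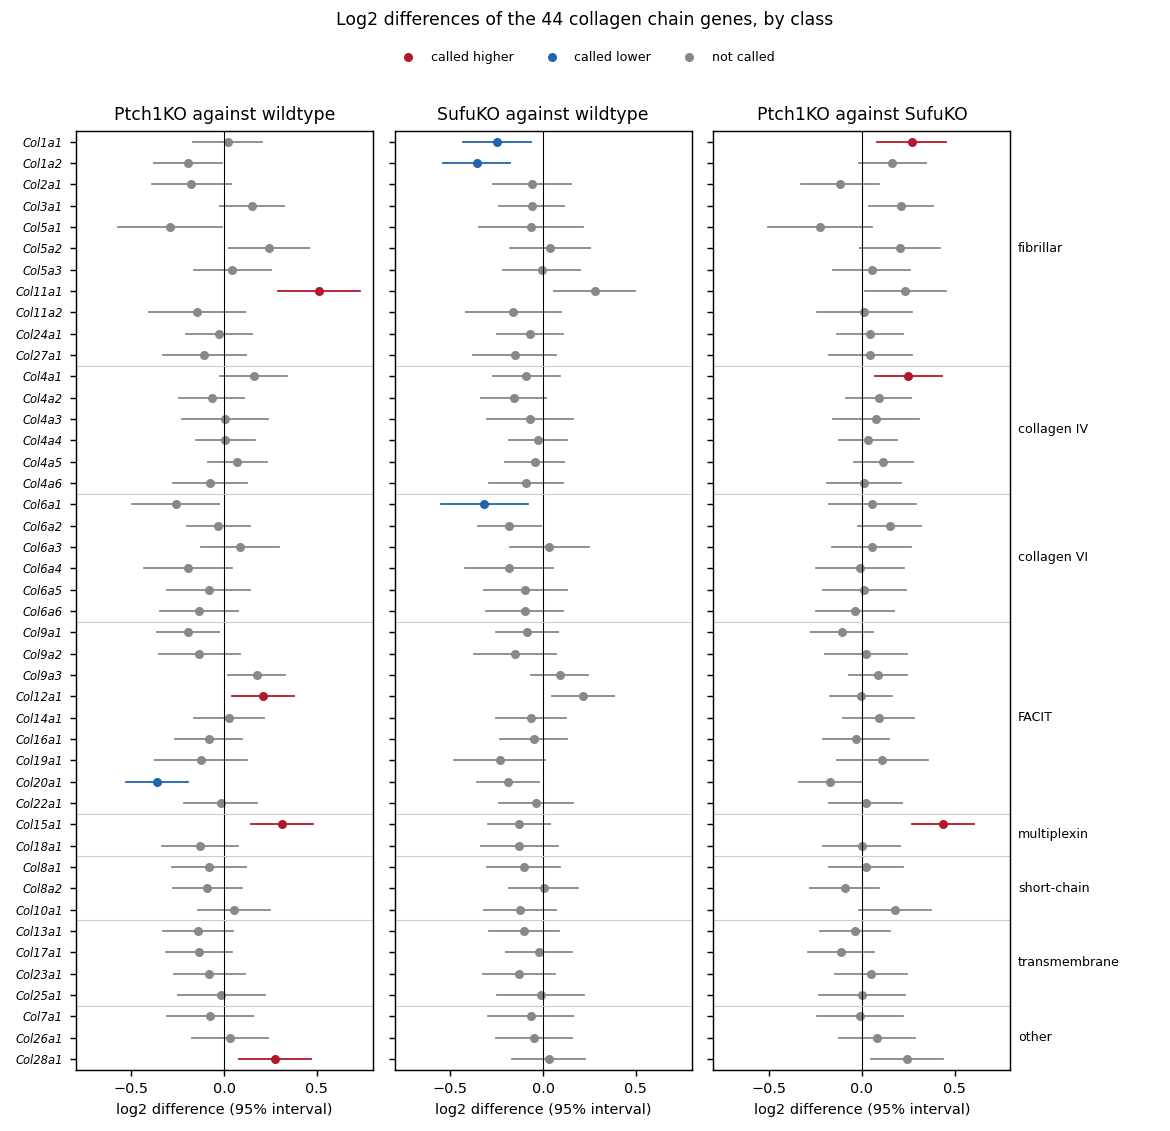
Log2 difference of each of the 44 collagen chain genes (points) with its 95% confidence interval (bars) in the 3 comparisons, grouped by class, with calls at an adjusted p under 0.05 in colour. In the tumours 4 chains are called higher and 1 lower, in SufuKO 3 lower, and between the mutants 3 higher, and the other intervals reach near or across 0.

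The fibrillar chains form the cross-striated fibrils of connective tissue, and 11 were measured. Of these 1 rose in the tumours and 0 fell, 0 rose and 2 fell in SufuKO, and 1 was higher and 0 lower between the mutants. That is 9.09%, 18.2% and 9.09% of the fibrillar chains, beside 46.8%, 25.4% and 29.7% of all genes. The chain that rose was Col11a1, which pairs with Col11a2 and the product of Col2a1 in collagen XI, a minor collagen that seeds thin fibrils. Its log2 values were 7.57, 7.50 and 7.31 in the tumours, 7.24, 7.34 and 7.11 in SufuKO cerebellum, and 6.98, 7.11 and 6.76 in wildtype cerebellum. Every tumour array lay above every wildtype array, and the SufuKO arrays lay above wildtype too, the lowest of them barely, and overlapped with the tumours. Col11a1 rose 1.43-fold in the tumours (log2 difference 0.51 ± 0.10 SE, 3 arrays in each group, limma adjusted p = 0.0010). In SufuKO its log2 difference was 0.28 ± 0.10 (limma adjusted p = 0.0619), and between the mutants 0.23 ± 0.10 (limma adjusted p = 0.108), so neither step was called. The tumour call was kept under all 19 alternatives, with an adjusted p from 0.000152 to 0.0138.

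The start region of Col11a1 is shown because this gene has the largest difference of any chain. It lies at chr3:114030290-114030589 on the plus strand of GRCm38.p6 and covers 250 bases before to 50 after the start, from RefSeq. Capitals mark matches to CCAAT boxes (CCAAT or ATTGG) and GC boxes (GGGCGG or CCGCCC), on both strands. This stretch held 1 CCAAT and 2 GC matches, none to TATAAA or TTTATA, and 62.3% G and C.
Col11a1: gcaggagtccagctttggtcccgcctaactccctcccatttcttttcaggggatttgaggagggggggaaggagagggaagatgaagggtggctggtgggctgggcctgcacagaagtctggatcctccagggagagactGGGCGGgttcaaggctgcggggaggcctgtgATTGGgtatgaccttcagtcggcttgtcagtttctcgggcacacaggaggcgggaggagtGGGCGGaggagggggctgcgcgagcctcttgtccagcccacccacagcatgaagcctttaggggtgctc
Of 32851 such windows in the RefSeq table, 37.4% held a CCAAT match, 35.7% a GC match and 13.6% a TATA match, so these letters are common. The table had 38 windows for 35 of the chains, of which 34.2%, 60.5% and 13.2% held them.

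The partners of Col11a1 did not share its rise. Col11a2 had log2 values of 7.34, 7.09 and 7.29 in the tumours, 7.42, 7.27 and 6.98 in SufuKO, and 7.47, 7.50 and 7.19 in wildtype. Col2a1, the chain of cartilage collagen II, had log2 values of 7.59, 7.36 and 7.602 in the tumours, 7.82, 7.63 and 7.46 in SufuKO, and 7.75, 7.69 and 7.64 in wildtype. The groups of Col11a2 overlapped, while the tumour arrays of Col2a1 all lay below wildtype. Neither was called, with log2 differences of -0.15 and -0.18 in the tumours, and the mean of each lay lower than wildtype while that of Col11a1 lay higher. With sex as a covariate both fell in the tumours, by 0.34 each on the log2 scale (limma adjusted p = 0.0217 for Col11a2 and 0.00533 for Col2a1). Collagen V, which mixes with collagen XI chains in some tissues, was split in the same way without a call. Col5a2 had a log2 difference of 0.24 in the tumours (95% interval 0.03 to 0.46, limma adjusted p = 0.0618) and Col5a1 of -0.29 (-0.57 to -0.01, limma adjusted p = 0.0855). Col5a3 was at 0.04. All 3 tumour arrays of Col5a2 were above the wildtype arrays, and all 3 of Col5a1 were below.

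Collagen I, the bulk collagen of bone, skin and meninges, is made of Col1a1 and Col1a2 chains, and both fell in SufuKO. Col1a2 had log2 values of 7.91, 7.92 and 8.03 in the tumours, 7.92, 7.78 and 7.67 in SufuKO, and 8.17, 8.25 and 8.03 in wildtype. Col1a2 fell 1.28-fold in SufuKO (log2 difference -0.36 ± 0.08, SE, limma adjusted p = 0.00748), with no overlap between the groups, and this call was kept under all 19 alternatives. In the tumours its log2 difference was -0.19 ± 0.08 (limma adjusted p = 0.0764).

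Col1a1 had log2 values of 8.12, 8.11 and 8.29 in the tumours, 7.99, 7.84 and 7.89 in SufuKO, and 8.19, 8.27 and 8.003 in wildtype. The SufuKO arrays were the 3 lowest of the 9, the highest of them close under the lowest wildtype array. Col1a1 fell 1.19-fold in SufuKO (log2 difference -0.25 ± 0.08, SE, limma adjusted p = 0.0493), stood 0.02 above wildtype in the tumours, and was 1.20-fold higher in the tumours than in SufuKO (log2 difference 0.27 ± 0.08, limma adjusted p = 0.0313). The fall in SufuKO lost its call under 12 of 19 alternatives, with an adjusted p of up to 0.194, and the difference between the mutants under 6 of 19, with an adjusted p of up to 0.123. Among the 12 were the fits without SufuKO replicate 2, SufuKO replicate 3, wildtype replicate 1 or wildtype replicate 2. They also include the sex covariate, quantile normalization, no filter on low values and the 2 groups alone. In tissue RNA, fewer cells of a type and less RNA per cell cannot be told apart.

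The start region of Col1a2 is shown for the fibrillar chain with the firmest change in SufuKO. It lies at chr6:4505368-4505667 on the plus strand of GRCm38.p6 and is cut and marked as for Col11a1. It held 2 CCAAT and 2 GC matches and none to the TATA letters.
Col1a2: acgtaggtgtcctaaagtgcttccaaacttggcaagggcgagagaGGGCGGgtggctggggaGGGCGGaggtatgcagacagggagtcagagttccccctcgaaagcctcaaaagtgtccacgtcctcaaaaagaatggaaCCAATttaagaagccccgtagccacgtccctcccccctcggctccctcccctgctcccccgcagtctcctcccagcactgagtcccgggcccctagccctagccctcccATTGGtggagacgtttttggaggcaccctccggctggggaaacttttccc
Both of these start regions carry CCAAT and GC letters, and any link between such letters and the levels of the 2 genes was not tested.

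Col3a1, the collagen of vessel walls and meninges and a ligand of the receptor Adgrg1 in the developing mouse cortex, averaged 7.61 ± 0.07 in the tumours, 7.40 ± 0.13 in SufuKO and 7.46 ± 0.07 in wildtype (log2, SD, n = 3 each). It was not called against wildtype in either mutant. Tumour against SufuKO gave a log2 difference of 0.21 ± 0.08 (SE, limma adjusted p = 0.0665), with every tumour array above every SufuKO array. Col24a1 and Col27a1, fibrillar chains of bone and cartilage, lay close to wildtype in both mutants, at -0.03 and -0.11 in the tumours and -0.07 and -0.15 in SufuKO (log2 differences).

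**Figure D2:**
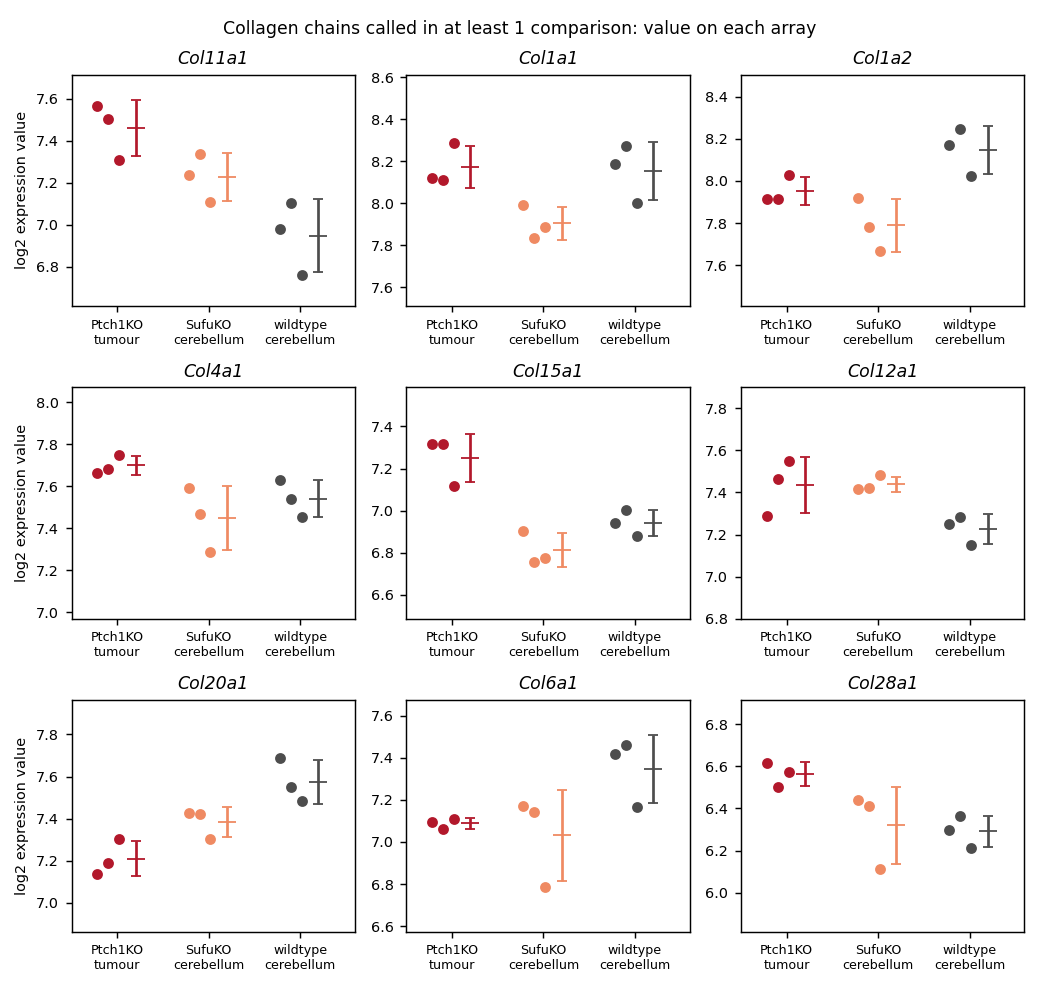
Log2 expression value on each array (points) of the 9 collagen chains called in at least 1 comparison, with the mean and SD of each group of 3 beside them, Ptch1KO tumours at left, SufuKO cerebellum in the middle and wildtype cerebellum at right. All panels span the same 1.1 log2 units. Col11a1, Col15a1 and Col20a1 show tumour arrays apart from wildtype, and Col1a2 shows SufuKO arrays below wildtype.

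The 6 collagen IV chains build basement membranes, with Col4a1 and Col4a2 in every basement membrane, including that of brain capillaries. None was called in the tumours or in SufuKO against wildtype, where their log2 differences ran from -0.08 to 0.16 and from -0.16 to -0.03. By unadjusted p, 0 of the 6 lay under 0.05 in those 2 comparisons, beside 51.9% and 35.8% of all genes. Col4a1 had log2 values of 7.66, 7.68 and 7.75 in the tumours, 7.59, 7.47 and 7.29 in SufuKO, and 7.63, 7.54 and 7.45 in wildtype. The tumour arrays were the 3 highest, while the SufuKO and wildtype arrays overlapped. Col4a1 was 1.19-fold higher in the tumours than in SufuKO (log2 difference 0.25 ± 0.08, SE, limma adjusted p = 0.0399). That call was lost under 8 of 19 alternatives, with an adjusted p of up to 0.136, among them the fits without any 1 of the tumour arrays, without SufuKO replicate 2 or 3, and without wildtype replicate 2. Against wildtype the log2 difference of Col4a1 in the tumours was 0.16 (95% interval -0.02 to 0.34).

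Col4a2, its partner in the trimer, had log2 values of 7.55, 7.52 and 7.43 in the tumours, 7.51, 7.41 and 7.30 in SufuKO, and 7.67, 7.59 and 7.43 in wildtype, and all 3 groups overlapped. Its log2 difference between the mutants was 0.09 ± 0.08 (SE, limma adjusted p = 0.474), and against wildtype -0.07 in the tumours and -0.16 in SufuKO. The 2 genes lie head to head and are read from opposite strands of one start region. Both RefSeq windows are shown because they overlap: Col4a1 at chr8:11312777-11313076 on the minus strand and Col4a2 at chr8:11312555-11312854 on the plus strand (GRCm38.p6). Capitals mark the 78 bases that both windows hold, which read as reverse complements of each other.
Col4a1: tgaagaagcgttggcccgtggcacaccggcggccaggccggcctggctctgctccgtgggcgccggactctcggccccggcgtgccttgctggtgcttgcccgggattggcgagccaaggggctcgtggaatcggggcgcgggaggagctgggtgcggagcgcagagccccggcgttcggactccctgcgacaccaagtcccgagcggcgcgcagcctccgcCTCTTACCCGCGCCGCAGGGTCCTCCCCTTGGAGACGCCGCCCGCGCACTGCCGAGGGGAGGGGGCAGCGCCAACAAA
Col4a2: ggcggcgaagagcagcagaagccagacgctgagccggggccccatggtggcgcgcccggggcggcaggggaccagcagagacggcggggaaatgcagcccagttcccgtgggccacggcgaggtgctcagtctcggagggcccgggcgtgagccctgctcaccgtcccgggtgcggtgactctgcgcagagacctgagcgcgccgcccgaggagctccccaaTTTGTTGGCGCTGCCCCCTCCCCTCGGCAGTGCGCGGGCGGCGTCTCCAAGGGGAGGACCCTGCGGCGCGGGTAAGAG
The other collagen IV genes are paired in the same way. Col4a3 and Col4a4 differed from wildtype by 0.01 and 0.01 in the tumours and by -0.07 and -0.03 in SufuKO, and the X-linked Col4a5 and Col4a6 by 0.07 and -0.08 in the tumours and by -0.05 and -0.09 in SufuKO (log2 differences).

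The multiplexins Col15a1 and Col18a1 are proteoglycans with interrupted helices that sit at the outer face of basement membranes, and the end of Col18a1 is released as endostatin, an inhibitor of vessel growth. Col15a1 showed the firmest difference of any chain between the mutants. Its log2 values were 7.32, 7.31 and 7.12 in the tumours, 6.90, 6.76 and 6.78 in SufuKO, and 6.94, 7.003 and 6.88 in wildtype. All 3 tumour arrays lay above the other 6, and SufuKO overlapped with wildtype. Col15a1 rose 1.24-fold in the tumours against wildtype (log2 difference 0.31 ± 0.08, SE, limma adjusted p = 0.00492). It was 1.35-fold higher in the tumours than in SufuKO (0.44 ± 0.08, limma adjusted p = 0.000956), and its log2 difference in SufuKO against wildtype was -0.13 ± 0.08 (limma adjusted p = 0.264). Both calls were kept under all 19 alternatives. Col18a1 averaged 7.61 ± 0.15 in the tumours, 7.61 ± 0.16 in SufuKO and 7.74 ± 0.05 in wildtype, with no call.

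Collagen VI forms beaded filaments near basement membranes from Col6a1, Col6a2 and a further chain, usually Col6a3. In the fit without sex 1 of its 6 chains fell in SufuKO and 0 were called in the tumours. That is 16.7% and 0% of them, beside 25.4% and 46.8% of all genes. Col6a1 had log2 values of 7.10, 7.06 and 7.11 in the tumours, 7.17, 7.14 and 6.78 in SufuKO, and 7.42, 7.46 and 7.16 in wildtype. SufuKO replicate 1 lay just above wildtype replicate 3, so those groups overlapped, while all tumour arrays lay below wildtype. Col6a1 fell 1.25-fold in SufuKO (log2 difference -0.32 ± 0.11, SE, limma adjusted p = 0.0480), and the log2 difference in the tumours was -0.26 ± 0.11 (limma adjusted p = 0.0645). With sex as a covariate Col6a1 fell in the tumours as well (log2 difference -0.40, limma adjusted p = 0.0125). It was also called lower there under quantile normalization, with the 2 groups alone, with array weights, with the replicate block, and without SufuKO replicate 3 or wildtype replicate 3. The SufuKO call was lost under 10 of 19 alternatives, with an adjusted p of up to 0.174. They include the fits without SufuKO replicate 2 or 3, wildtype replicate 1 or 2, or any 1 of the tumour arrays.

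Col6a2, which lies next to Col6a1 in the genome and joins it in the trimer, had a log2 difference of -0.18 in SufuKO (95% interval -0.35 to -0.01, limma adjusted p = 0.113) and -0.03 in the tumours. Col6a3 was at 0.09 in the tumours and 0.03 in SufuKO. Col6a4, Col6a5 and Col6a6, which resemble Col6a3 and lie side by side on chromosome 9, had log2 differences of -0.19, -0.08 and -0.14 in the tumours and -0.18, -0.10 and -0.10 in SufuKO, none called in the fit without sex. With sex as a covariate these chains all fell in the tumours, with log2 differences of -0.40, -0.26 and -0.29 (limma adjusted p = 0.0029, 0.0383 and 0.0179). Col6a4 also fell in SufuKO in that fit (-0.38, limma adjusted p = 0.0086). The second probe sets of Col6a5 and Col6a6 read lower, from 5.25 to 5.43 and from 5.18 to 5.66 over the 9 arrays.

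The fibril-associated collagens bind to the surface of fibrils and join them to other matrix, and 9 were measured. In the tumours 1 rose and 1 fell, and in SufuKO and between the mutants 0 were called. Col20a1 had log2 values of 7.14, 7.19 and 7.30 in the tumours, 7.43, 7.42 and 7.30 in SufuKO, and 7.69, 7.55 and 7.48 in wildtype. All tumour and SufuKO arrays lay below all wildtype arrays. Col20a1 fell 1.29-fold in the tumours (log2 difference -0.36 ± 0.08, SE, limma adjusted p = 0.00165), a call kept under all 19 alternatives. In SufuKO the log2 difference was -0.19 ± 0.08 (limma adjusted p = 0.0905), and between the mutants -0.17 ± 0.08 (limma adjusted p = 0.118).

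Col12a1, a fibril-associated chain of tendon and other tissue under load, had log2 values of 7.29, 7.47 and 7.55 in the tumours, 7.42, 7.42 and 7.48 in SufuKO, and 7.25, 7.28 and 7.15 in wildtype. The lowest tumour array lay barely above the highest wildtype array. Its log2 difference was nearly the same in both mutants, 0.21 ± 0.08 in the tumours, where it passed the test (limma adjusted p = 0.0412), and 0.21 ± 0.08 in SufuKO, where it did not (limma adjusted p = 0.0620). The mutants differed by less than 0.01. The tumour call was lost under 11 of 19 alternatives, with an adjusted p of up to 0.142, among them the fits without tumour replicate 2 or 3, without SufuKO replicate 2 and without any 1 of the wildtype arrays. It was also lost with sex as a covariate.

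Collagen IX, a heterotrimer on cartilage fibrils, split by chain, without a call in the fit without sex. Col9a3 was at 0.18 in the tumours (limma adjusted p = 0.0617) and Col9a1 at -0.20 (limma adjusted p = 0.0548), with every tumour array outside the wildtype range in both, and Col9a2 was at -0.13 (log2 differences). With sex as a covariate Col9a1 and Col9a2 fell in the tumours, at -0.28 and -0.32 (limma adjusted p = 0.0176 and 0.0070). Col9a2 also fell in SufuKO in that fit (-0.34, limma adjusted p = 0.0113). Under the median filter and with array weights Col9a1 was called lower and Col9a3 higher in the tumours. Col14a1, Col16a1, Col19a1 and Col22a1 were at 0.02, -0.08, -0.12 and -0.02 in the tumours and at -0.07, -0.05, -0.23 and -0.04 in SufuKO. Col19a1, which takes part in synapse formation in mouse brain, thus lay furthest from wildtype of these 4, with a 95% interval of -0.48 to 0.01 in SufuKO (limma adjusted p = 0.161).

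The remaining chains had no call in the fit without sex, with 1 exception. The short-chain collagens Col8a1, Col8a2 and Col10a1, of the corneal and vascular matrix and of growing cartilage, had log2 differences of -0.08, -0.09 and 0.05 in the tumours and -0.11, 0.00 and -0.13 in SufuKO. Their values on the 9 arrays ran from 5.52 to 6.60. The transmembrane collagens, cell surface proteins that include the hemidesmosome component Col17a1 and the neuromuscular Col13a1, had log2 differences from -0.14 to -0.01 in the tumours and from -0.13 to -0.01 in SufuKO. These were Col13a1, Col17a1, Col23a1 and Col25a1, and in the fit without sex none was called in any of the 3 comparisons. By unadjusted p 0 of the 4 lay under 0.05 there, beside 51.9% of all genes in the tumours, 35.8% in SufuKO and 37.9% between the mutants. With sex as a covariate Col13a1 fell in the tumours by 0.29 on the log2 scale and Col17a1 by 0.26 (limma adjusted p = 0.00974 and 0.0181). Col13a1 also fell by 0.25 in SufuKO in that fit (limma adjusted p = 0.0379). Col7a1, which forms anchoring fibrils of skin, and Col26a1 were within 0.08 of wildtype in both mutants on the log2 scale.

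Col28a1, a collagen known from peripheral nerve of mice, was the exception. Its log2 values were 6.62, 6.50 and 6.57 in the tumours, 6.44, 6.41 and 6.11 in SufuKO, and 6.30, 6.36 and 6.21 in wildtype. The tumour arrays were the 3 highest. Col28a1 rose 1.21-fold in the tumours (log2 difference 0.27 ± 0.09, SE, limma adjusted p = 0.0235), and its log2 difference was 0.03 in SufuKO. The call was lost under 6 of 18 alternatives, with an adjusted p of up to 0.224. Among the 6 were the fits without tumour replicate 1 or 3, without wildtype replicate 1 or 3, and the fit with sex as a covariate, where the log2 difference was 0.14.

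The genes that make, bind and degrade collagen were taken as 6 lists. The shares of tested genes called ran from 42.9% to 66.7% over the lists in the tumours, beside 46.8% of all genes, and from 21.4% to 40% in SufuKO, beside 25.4%. Between the mutants they ran from 20% to 50%, beside 29.7%. The difference between these lists and the chains was not tested. Of 20 tested genes of collagen folding, modification and export 7 rose and 6 fell in the tumours, 5 rose and 3 fell in SufuKO, and 3 were higher and 1 lower between the mutants. Their median log2 difference was 0.14, 0.03 and 0.03, beside -0.01 for all genes in each comparison. Plod2, the lysyl hydroxylase that sets the crosslinks of collagen ends, had log2 values of 8.33, 8.41 and 8.32 in the tumours, 7.81, 7.92 and 8.30 in SufuKO, and 7.38, 7.16 and 7.45 in wildtype. Every mutant array lay above wildtype, and the difference exceeds that of any chain. Plod2 rose 2.03-fold in the tumours (log2 difference 1.02 ± 0.12, SE, limma adjusted p = 1.19e-05) and 1.60-fold in SufuKO (0.68 ± 0.12, limma adjusted p = 0.00110).

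Ppib, a proline isomerase of the endoplasmic reticulum that helps collagen fold, rose 1.48-fold in the tumours and 1.43-fold in SufuKO, and P4hb, a subunit of prolyl 4-hydroxylase, rose 1.46-fold in the tumours. P4hb also rose in SufuKO, to a mean of 9.44 beside 9.11 in wildtype (log2). Plod1, another lysyl hydroxylase, fell 1.26-fold in SufuKO (limma adjusted p = 0.00317). Plod1 fell in the tumours too, to a mean of 8.51 beside 8.91 in wildtype (log2). Between the mutants P3h2, a prolyl 3-hydroxylase, was 1.63-fold higher in the tumours and P3h3 1.20-fold lower, with P4hb (0.22) and Plod2 (0.34) also higher on the log2 scale. P4hb lost that call under 6 of 19 alternatives, Plod2 under 8 and P3h3 under 1.

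Among 12 tested genes of procollagen processing and crosslinking 2 rose and 4 fell in the tumours, 0 rose and 3 fell in SufuKO, and 4 were higher and 2 lower between the mutants, with median log2 differences of -0.02, -0.11 and 0.08. The procollagen N-proteinases went opposite ways. Adamts3 had log2 values of 7.81, 7.73 and 7.76 in the tumours, 8.38, 8.51 and 8.29 in SufuKO, and 8.83, 8.80 and 8.83 in wildtype, stepping down with no overlap. It fell 2.08-fold in the tumours (limma adjusted p = 1.56e-07) and 1.35-fold in SufuKO. Adamts3 had 16 single-gene probe sets, and these values are from the one with the highest mean. Its calls were lost under 0 of 19 alternatives, which include the mean of all its probe sets. Adamts14 rose 1.87-fold in the tumours (limma adjusted p = 0.000178), and its 3 tumour values were 7.91, 7.88 and 7.30. Bmp1, which removes the C-terminal propeptide, fell 1.62-fold in the tumours. Tll1, a Bmp1 relative, fell 1.53-fold and Pxdn, the peroxidase that crosslinks collagen IV, 1.19-fold in SufuKO. Tll1 also fell in the tumours, to a mean of 7.74 beside 8.21 in wildtype (log2). Between the mutants Adamts3 was 1.54-fold and Bmp1 1.45-fold lower in the tumours, and Adamts14 2.01-fold higher.

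Of 10 collagen receptors 4 rose and 1 fell in the tumours, 2 rose and 2 fell in SufuKO, and 4 were higher and 0 lower between the mutants (medians -0.04, -0.04 and 0.14). Ddr2, a receptor tyrosine kinase that binds fibrillar collagen, had log2 values of 8.90, 8.96 and 8.60 in the tumours, 7.70, 7.81 and 7.92 in SufuKO, and 7.02, 7.04 and 7.11 in wildtype. It rose 3.39-fold in the tumours (log2 difference 1.76 ± 0.09, SE, limma adjusted p = 3.71e-08) and 1.68-fold in SufuKO, with the 3 groups fully apart. Adgrg1, an adhesion receptor, rose 2.57-fold in the tumours and 1.88-fold in SufuKO, and Col3a1, the chain that binds it, had log2 differences of 0.15 and -0.06 there without a call. Itgb1, the shared beta subunit of collagen integrins, rose 1.42-fold and Ddr1 1.23-fold in the tumours, where the integrin subunit Itga2 fell 1.33-fold. Itga1 and Itga2 fell in SufuKO, by 0.41 each on the log2 scale. Ddr2 (2.02-fold), Adgrg1 (1.36-fold), Ddr1 (1.19-fold) and Itgb1 (1.24-fold) were higher in the tumours than in SufuKO.

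Among 14 other basement membrane genes 3 rose and 3 fell in the tumours, 0 rose and 3 fell in SufuKO, and 3 were higher and 0 lower between the mutants (medians 0.03, -0.07 and 0.10). Lama5, the alpha chain of mature vascular and epithelial laminins, had log2 values of 8.51, 8.56 and 7.90 in the tumours, 7.01, 6.90 and 7.08 in SufuKO, and 7.10, 7.05 and 6.82 in wildtype. It rose 2.52-fold in the tumours (limma adjusted p = 9.61e-06) and was 2.51-fold higher there than in SufuKO. Lamb1 and Lama2, further laminin chains, fell in the tumours by 1.22-fold and 1.30-fold, and in SufuKO by 1.30-fold and 1.52-fold, together with Nid1, which links laminin to collagen IV (1.26-fold). Nid1 also fell in the tumours, to a mean of 9.08 beside 9.35 in wildtype (log2). Lama1 (1.38-fold) and Lamc1 (1.22-fold) were higher in the tumours than in SufuKO.

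Of 10 tested fibril-binding proteins 2 rose and 3 fell in the tumours, 0 rose and 4 fell in SufuKO, and 2 were higher and 0 lower between the mutants (medians -0.01, -0.10 and 0.05). Bgn and Lum, small proteoglycans on fibrils, rose 1.19-fold and 1.35-fold in the tumours, while Fmod and Prelp, of the same family, and the glycoprotein Thbs1 fell by 1.35-fold, 1.27-fold and 1.36-fold. Fmod, Prelp, Thbs1 and Dcn fell in SufuKO, by 0.35, 0.36, 0.32 and 0.36 on the log2 scale, and Dcn lost its call under 10 of 19 alternatives. Bgn (1.30-fold) and Lum (1.38-fold) were also higher in the tumours than in SufuKO.

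Of 9 tested collagen-degrading proteases and their inhibitors 3 rose and 3 fell in the tumours, 1 rose and 1 fell in SufuKO, and 2 were higher and 2 lower between the mutants (medians 0.05, 0.01 and -0.10). Timp4, a metalloproteinase inhibitor of brain, fell 2.69-fold in the tumours (limma adjusted p = 1.06e-07) and 1.82-fold in SufuKO. Mmp2, a gelatinase, rose 1.95-fold and Mmp14, a membrane-bound collagenase that activates it, 1.76-fold in the tumours. Mmp16, another membrane-bound metalloproteinase, rose 1.47-fold in SufuKO. Mmp16 also rose in the tumours, to a mean of 9.37 beside 8.82 in wildtype (log2). Mmp14 (1.77-fold) and Mmp2 (1.60-fold) were higher in the tumours than in SufuKO, and Timp4 (1.48-fold) and the lysosomal collagenase Ctsk (1.24-fold) lower.

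**Figure D3:**
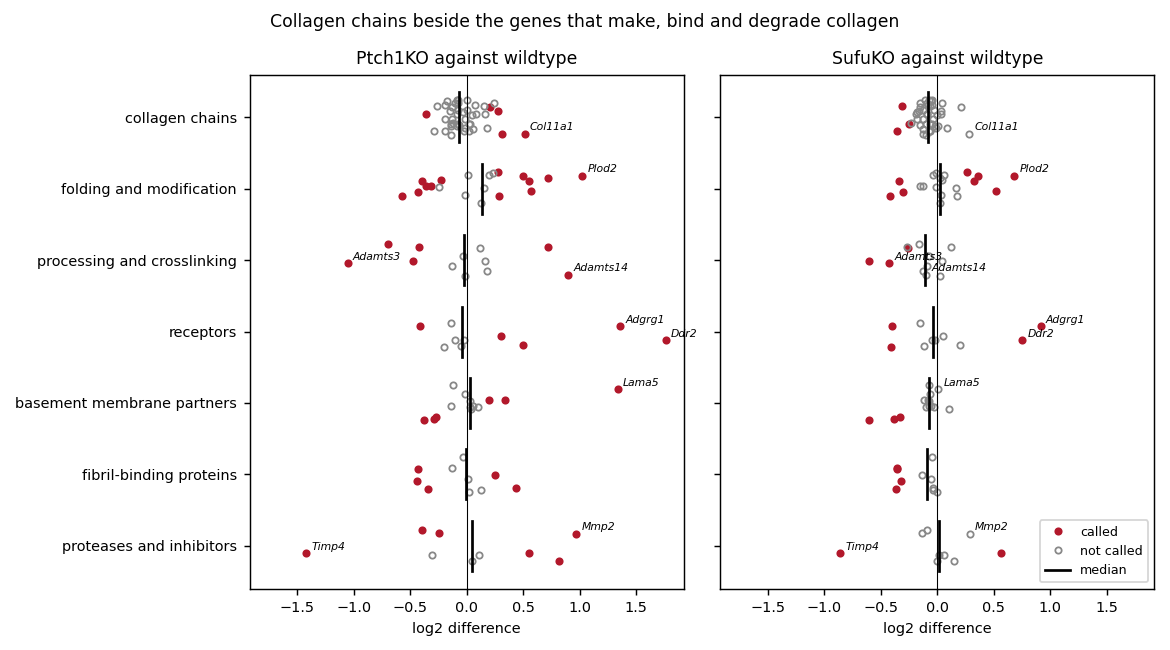
Log2 difference of each tested gene (points; filled where called at an adjusted p under 0.05) and the median (black bar) for the 44 collagen chains and for 6 lists of genes that make, bind or degrade collagen, for Ptch1KO tumours and for SufuKO cerebellum, each against wildtype. The chains stay within 0.51 of wildtype, while in the tumours Ddr2, Adgrg1, Lama5 and Plod2 lie above 1 and Timp4 and Adamts3 below -1 on the log2 scale.

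Markers of the cells that make collagen in brain were read beside the chains. Of 12 endothelial markers 0 rose and 9 fell in the tumours and 0 rose and 6 fell in SufuKO, and their summed linear level was 1827 to 1880 in the tumours, 1926 to 2052 in SufuKO and 2227 to 2453 in wildtype. Of the SufuKO calls, that of Tek was lost under 8 of 18 alternatives, Sox17 7 of 18, Flt1 5 of 19 and Esam 4 of 19. With sex as a covariate Emcn, Esam, Sox17 and Tek lost theirs in SufuKO, and Cdh5, Emcn and Kdr in the tumours. Of 12 pericyte and smooth muscle markers 6 fell in the tumours and 4 in SufuKO, with sums of 1902 to 2037 in the tumours, 1977 to 2159 in SufuKO and 2541 to 2620 in wildtype. Notch3 lost its SufuKO call under 11 of 19 alternatives and Acta2 its tumour call under 5 of 19. Of 15 meningeal fibroblast markers 10 fell and 1, Lum, rose in the tumours and 7 fell in SufuKO, with sums of 1765 to 1910 in the tumours, 1963 to 2352 in SufuKO and 2724 to 3187 in wildtype. Both counts of falls in the last list include Ranbp3l, which passed the filter on low values only through wildtype, where it is highest, and so had to differ. Its brightest marker, Ptgds, made up much of the sum: without it the sums were 1358 to 1486 in the tumours, 1315 to 1481 in SufuKO and 1603 to 1759 in wildtype. The meningeal list holds no collagen chain, and 3 of its genes, Dcn, Lum and Fmod, are also among the fibril-binding proteins above. Foxc1 and Foxc2 lost their tumour calls under 6 and 5 of 18 alternatives. In the tumours 75% of the endothelial, 50% of the pericyte and 73.3% of the meningeal markers were called, beside 46.8% of all genes. In SufuKO it was 50%, 33.3% and 46.7%, beside 25.4%. The pericyte share in the tumours thus lay near that of all genes. None of these 3 lists had a marker at or under the 25th percentile on all 9 arrays. In SufuKO the sums of these lists were lower, Col1a1, Col1a2 and Col6a1 fell, and the other 41 chains were not called. The falls of Col1a1 and Col6a1 there lost their calls under 12 and 10 of 19 alternatives. In the tumours the same sums were lower, Col11a1, Col12a1, Col15a1 and Col28a1 rose, Col20a1 fell, and 39 chains were not called. The part of these cells in the levels of the chains was not tested.

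Tissue carried over at dissection would add bone, cartilage and muscle. Skeletal muscle markers had 0 calls of 7 tested in both mutants, with sums of 663 to 700 in the tumours, 625 to 714 in SufuKO and 650 to 750 in wildtype, and their median log2 difference from wildtype was -0.04 in each mutant. Of 7 tested cartilage and bone markers Alpl and Sox9 rose and Hapln1 fell in the tumours, and Hapln1 fell in SufuKO, with sums over 10 measured markers of 959 to 1078 in the tumours, 830 to 874 in SufuKO and 880 to 912 in wildtype. Sox9 and Hapln1 are also made by neural cells. Choroid plexus markers, from the tissue that makes cerebrospinal fluid, varied widely within groups, with sums of 1823 to 3137 in the tumours, 1068 to 4896 in SufuKO and 878 to 2086 in wildtype. Of 7 of them Kl and Otx2 rose in the tumours and in SufuKO, and Sostdc1 rose in SufuKO, a call lost under 12 of 18 alternatives. That of Kl in SufuKO was lost under 3 of 18. Ttr alone ranged from 7.79 to 11.88 (log2) over the 9 arrays, so much of the spread of the choroid plexus sums is its own. Otx2 averaged 9.30 in the tumours, 9.11 in SufuKO and 8.42 in wildtype (log2), the same order as all 6 granule neuron progenitor markers. Whether its rise comes from choroid plexus was not tested. Of 8 microglia and macrophage markers 4 rose in the tumours and 2 in SufuKO, with sums of 1519 to 1758 in the tumours, 1156 to 1306 in SufuKO and 1041 to 1059 in wildtype. Of 10 markers of Bergmann glia and astrocytes 1 rose and 7 fell in the tumours and 0 rose and 7 fell in SufuKO. Of 8 oligodendrocyte markers 2 rose and 5 fell in the tumours and 1 rose and 6 fell in SufuKO. In the tumours 50% of the microglia, 80% of the astrocyte and 87.5% of the oligodendrocyte markers were called, beside 46.8% of all genes. In SufuKO it was 25%, 70% and 87.5%, beside 25.4%. The microglia shares thus lay near those of all genes. Of the cartilage and bone markers 42.9% were called in the tumours and 14.3% in SufuKO, and of the choroid plexus markers 28.6% and 42.9%. The part of these cell types in the differences of the chains was not tested.

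**Figure D4:**
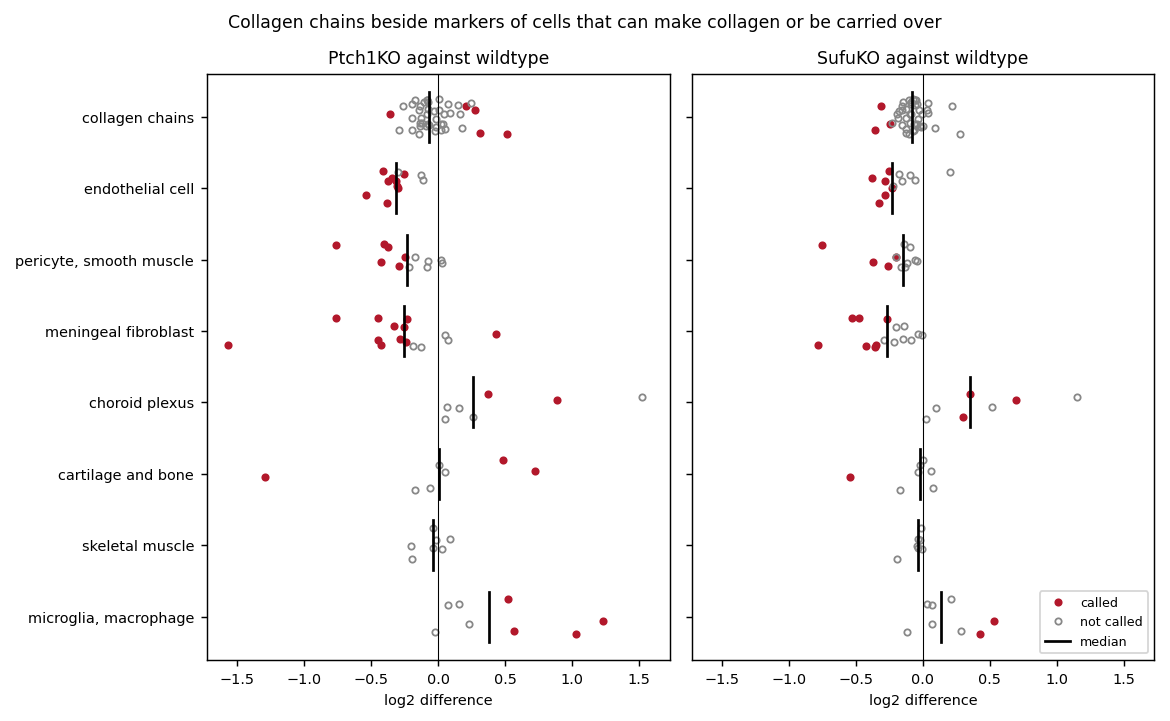
Log2 difference of each tested gene (points; filled where called at an adjusted p under 0.05) and the median (black bar) for the collagen chains and for marker lists of 7 cell types, for Ptch1KO tumours and for SufuKO cerebellum, each against wildtype. Endothelial, pericyte and meningeal fibroblast medians lie between -0.31 and -0.15, and the chain medians at -0.07 and -0.08.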

How the data were processed

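RNA of 9 mouse samples, 3 in each of 3 groups taken from the sample titles, was measured on Affymetrix Mouse Gene 1.0 ST arrays, per the labels' protocols. The authors deposited log2 values, 1 for each of 35556 probe sets per array. The scale was recognised from the values, and how they were background-corrected, normalized and summarised is not given in the sources used here. No 2 arrays were identical, and 0 columns were left unused.

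Gene names came from the array's annotation table (21789 with 1 symbol, 1621 with several, 12146 not listed), and 21698 of the first were matched by identifier to RefSeq genes of GRCm38.p6, with 0 symbols changed. The probe set with the highest mean stood for a gene. Genes above the 25th percentile of their array on at least 3 arrays were fitted with limma 3.58.1 in R 4.3.3, with 1 mean per group over all 9 arrays and empirical Bayes moderation. The 2-sided p-values were adjusted by Benjamini-Hochberg over all 16323 genes, with a threshold of 0.05. SE is the moderated standard error, SD that of 3 arrays, and fold is 2 to the power of the absolute log2 difference. The number of arrays limits the precision of every value.

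The members and gene lists were chosen with earlier results of these data known. Values on each array were to be given for chains called with a log2 difference of at least 0.5 and their partners, and for every other list and comparison the 3 called genes of smallest p, or all where 5 or fewer. The remaining called chains, and the array values of genes in other lists, were added after their values were seen. Alternatives were other low-value filters, quantile normalization, the 2 groups alone, an intensity trend with a robust prior, array weights (estimated gene by gene), mean of all probe sets, a sex covariate, replicate block, no moderation and leaving out each array.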

Additional observations from a re-analysis of the deposited data

Results flagged for a closer look

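Col15a1, Col1a1 and Col4a1 are singled out because the tumours and SufuKO cerebellum differed in them by the test of that difference itself, with limma across 3 arrays per group. The log2 differences, tumour minus SufuKO, were 0.44 for Col15a1 (adjusted p = 0.000956), 0.27 for Col1a1 (adjusted p = 0.0313) and 0.25 for Col4a1 (adjusted p = 0.0399), with every tumour array above every SufuKO array in each of the 3 genes. The call of Col15a1 was kept under all 19 alternatives, that of Col1a1 was lost under 6 and that of Col4a1 under 8.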

How the results depend on the processing

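The calls of Col11a1, Col15a1 and Col20a1 in the tumours, of Col1a2 in SufuKO and of Col15a1 between the mutants were kept under every alternative run, and no called chain changed sign under any. The counts of called chains were less stable. Higher in the tumours than wildtype were 4 chains, with 2 under the sex covariate and without moderation, and 2 to 5 when 1 array was left out. Lower in the tumours was 1 chain, with 2 under the median filter, 3 under quantile normalization, 4 with the 2 groups alone, 5 with array weights, 12 with the sex covariate, 2 with the replicate block, and 1 to 3 when 1 array was left out. Higher in SufuKO than wildtype were 0 chains, with 2 under the median filter, 1 with the 2 groups alone, 2 with array weights, 1 with the replicate block, and 0 to 2 when 1 array was left out. Lower in SufuKO were 3 chains, with 1 without a filter, 1 with the 2 groups alone, 7 with array weights, 6 with the sex covariate, 1 without moderation, and 1 to 3 when 1 array was left out. Tumour above SufuKO were 3 chains, with 6 under array weights, 1 without moderation, and 1 to 7 when 1 array was left out. Tumour below SufuKO were 0 chains, with 1 under array weights, and 0 to 1 when 1 array was left out. The arrays behind the lowest and highest counts were tumour replicate 3 and wildtype replicates 1 and 3 for chains higher in the tumours (2 each), and SufuKO replicates 1 and 3 and wildtype replicate 3 for those lower (3 each). For chains lower in SufuKO (1 each) they were tumour replicates 1 and 2, SufuKO replicates 2 and 3 and wildtype replicates 1 and 2. For tumour above SufuKO they were tumour replicate 1 and SufuKO replicates 2 and 3 (1 each) and SufuKO replicate 1 (7). The signs of all chains under these settings, and the meningeal sum without Ptgds, were added after seeing the data. The cause of these moves was not tested. Of 250 called results for genes of the other lists, 50 lost their call under at least 1 alternative and 0 changed sign. No pairing of the samples by replicate number was seen: deviations of same-numbered samples correlated at -0.31 to 0.35, and 7 of 18 best matches were to the own number. With 3 arrays per group this check cannot exclude a pairing. Chains near background may have understated differences, and the arrays give no detection calls to bound them.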

Other observations

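Some of the chain genes lie next to each other, and there are 8 pairs of collagen genes with no other protein-coding gene between them in the RefSeq order. Col3a1 and Col5a2 on chromosome 1 had log2 differences of 0.21 and 0.20 between tumour and SufuKO, 0.15 and 0.24 between tumour and wildtype, and -0.06 and 0.04 between SufuKO and wildtype. Col9a1 and Col19a1, also on chromosome 1, were at -0.11 and 0.11, -0.20 and -0.12, and -0.09 and -0.23 in the same comparisons. None of these differences was called.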
